A study of Rattus norvegicus with 8 samples.

Results

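The genes described here encode the parts of the hemidesmosome, its laminin-332 ligand and the epithelial integrins related to them. They were chosen by name, because the integrin beta 4 gene Itgb4 was strongly higher in kidneys of rats given colistin. The list holds 9 genes, Itgb4, Itga6, Lama3, Lamb3, Col17a1, Dst, Plec, Itga3 and Itgb6. Probes were assigned to them through the RefSeq accession that the array files give for each probe. Of the 9 genes, 5 had a probe (Itgb4, Itga6, Lamb3, Plec and Itgb6) and all 5 were among the 12411 genes tested, on 6 of the 30367 probes of the array. Lama3, Col17a1, Dst and Itga3 matched no probe by accession and were not analysed here.

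The samples were total RNA from kidneys of male rats labelled 10 weeks of age, taken at day 28, 4 after saline and 4 after colistin at 30 mg/kg. Colistin is a polymyxin antibiotic that injures the renal tubule. No strain, route or dosing schedule stands in the labels, and the series title speaks of injured tubules while the tissue is labelled as kidney. Each sample was hybridised to its own 1-colour Agilent array as amplified cDNA. The labels do not say that the samples came from separate animals, and the spread behind each p-value may therefore be partly technical.

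Hemidesmosomes rivet epithelial cells to the basement membrane. The integrin alpha 6 beta 4 pair spans the membrane, binds laminin-332 outside the cell, and is tied inside to keratin filaments by plectin and by the epithelial isoform of dystonin. Laminin-332 is a trimer that includes the alpha 3 and beta 3 chains, and collagen XVII is a further transmembrane part of the complex. Stratified epithelia and urothelium form full hemidesmosomes, whereas tubules of the kidney attach mainly through beta 1 integrins to laminins with an alpha 5 chain.

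The RefSeq table of upstream sequence (build GRCr8) held 6 of the 9 genes, and of the measured ones Lamb3 and Itgb6. Their 250 bases before the start of the gene are shown because these are the measured genes whose upstream letters the table gives. Capitals mark matches, on either strand, to the cyclic AMP response element letters TGACGTCA, the AP-1 letters TGANTCA, the GC box letters GGGCGG or the TEAD letters GGAATG. None of these strings contains another.
Lamb3, chr13:107362303-107362552, plus strand: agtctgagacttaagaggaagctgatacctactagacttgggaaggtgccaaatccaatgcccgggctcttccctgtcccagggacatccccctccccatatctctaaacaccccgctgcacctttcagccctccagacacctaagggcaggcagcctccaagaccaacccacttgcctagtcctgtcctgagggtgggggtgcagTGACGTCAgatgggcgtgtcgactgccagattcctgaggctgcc
Itgb6, chr3:65530334-65530583, minus strand: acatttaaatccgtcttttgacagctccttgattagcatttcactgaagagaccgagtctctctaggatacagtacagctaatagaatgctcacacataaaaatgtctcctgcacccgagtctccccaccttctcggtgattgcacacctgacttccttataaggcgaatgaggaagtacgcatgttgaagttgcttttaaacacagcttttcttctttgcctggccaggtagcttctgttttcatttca
Lamb3 had 1 match to TGACGTCA, beginning 44 bases before the start, and none of the other motifs. Itgb6 matched none of them. Of 27457 upstream sequences of the same length, 1.70% held TGACGTCA, 6.36% the AP-1 letters, 32.4% the GC box and 11.8% the TEAD letters. These matches describe letters in a window and say nothing of binding.

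Levels are given as log2 processed signal after each array's own 75th percentile was subtracted, so that 0 is the brightness of the array's upper quartile. Levels of different probes cannot be compared on an array, so each gene is compared only with itself. The saline arrays were dimmer, with a 75th percentile of 156 to 197 against 271 to 317 on colistin arrays, and 69.3% to 75.8% against 79.1% to 83.9% of spots well above background. A probe of equal processed signal on all arrays therefore reads lower on colistin arrays once the percentile is subtracted. Saline array 4 had the lowest mean correlation with its group (0.777). The 9 proximal tubule markers were well above background on all 8 arrays, which fits the kidney label. In whole tissue, fewer cells of a type and less RNA per cell cannot be told apart.

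Itgb4 encodes the beta 4 subunit, the long-tailed integrin subunit found in hemidesmosomes. Its processed signal was 51.8, 6.31, 10.2 and 2.835 intensity units on saline arrays 1 to 4 and 2627, 947, 852 and 2733 on colistin arrays 1 to 4, over a local background of 32.5 to 35. On the log2 scale these were -1.59, -4.93, -4.27 and -5.79 after saline and 3.11, 1.63, 1.65 and 3.11 after colistin. The groups did not overlap, saline array 1 stood 2.55 above the saline mean, and the signal on saline array 4 was not well above background. The difference, which is the value that chose these genes and is given without a test, was 6.52 ± 0.89 (log2 fold change ± SE, n = 4 per group), or 91.5-fold.

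Array to array, Itgb4 varied more than most genes. Its SD was 1.81 among saline and 0.85 among colistin arrays, and its pooled within-group SD was higher than that of 76.9% of the genes tested. Both colistin arrays on slide 3 (arrays 1 and 4) had the same value, 3.11, and the colistin arrays on slides 1 and 2 had 1.63 and 1.65. Within slides 1, 2 and 3 the difference between colistin and saline was 5.31, 6.58 and 7.37. Leaving out saline array 1 raised the difference to 7.37, and leaving out saline array 4 lowered it to 5.97. With normexp background correction, which adds a constant that lifts dim spots, the difference was 3.83.

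Itga6 encodes the alpha 6 subunit, the obligatory partner of beta 4, which also pairs with beta 1. It measured 0.52, 1.03, 0.01 and 2.44 on saline arrays 1 to 4 and 1.30, 1.46, 1.02 and 1.38 on colistin arrays 1 to 4. The colistin values lay inside the saline range, and saline array 4 was the highest of all 8. The difference was 0.29 ± 0.52 (n = 4 per group, 95% interval -0.90 to 1.47). It was -0.02 within slide 1, -0.02 within slide 2 and 1.33 within slide 3, and -0.05 without saline array 3. The spread was unequal, with an SD of 1.05 after saline and 0.19 after colistin.

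Plec encodes plectin, the large linker that joins the beta 4 tail to keratin filaments and is also made by many cells without hemidesmosomes. On the probe that stood for the gene, the values were 0.88, -0.55, -0.49 and -1.06 after saline and 3.02, 3.74, 2.27 and 2.74 after colistin. The groups did not overlap, and as for Itgb4 saline array 1 was the highest and saline array 4 the lowest of the saline arrays. The difference was 3.25 ± 0.51 (n = 4 per group), or 9.52-fold.

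A second Plec probe, designed on the same accession, gave a smaller difference. It measured 2.18, 0.43, -1.24 and -0.14 after saline and 2.54, 1.14, 1.39 and 2.14 after colistin. Here the groups overlapped, because saline array 1 exceeded 3 of the 4 colistin arrays. The difference of this probe was 1.50 ± 0.71 (n = 4 per group), and the mean of both probes gave 2.37. Within slides 1, 2 and 3 the first probe gave 3.83, 2.82 and 3.38.

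**Figure D1:**
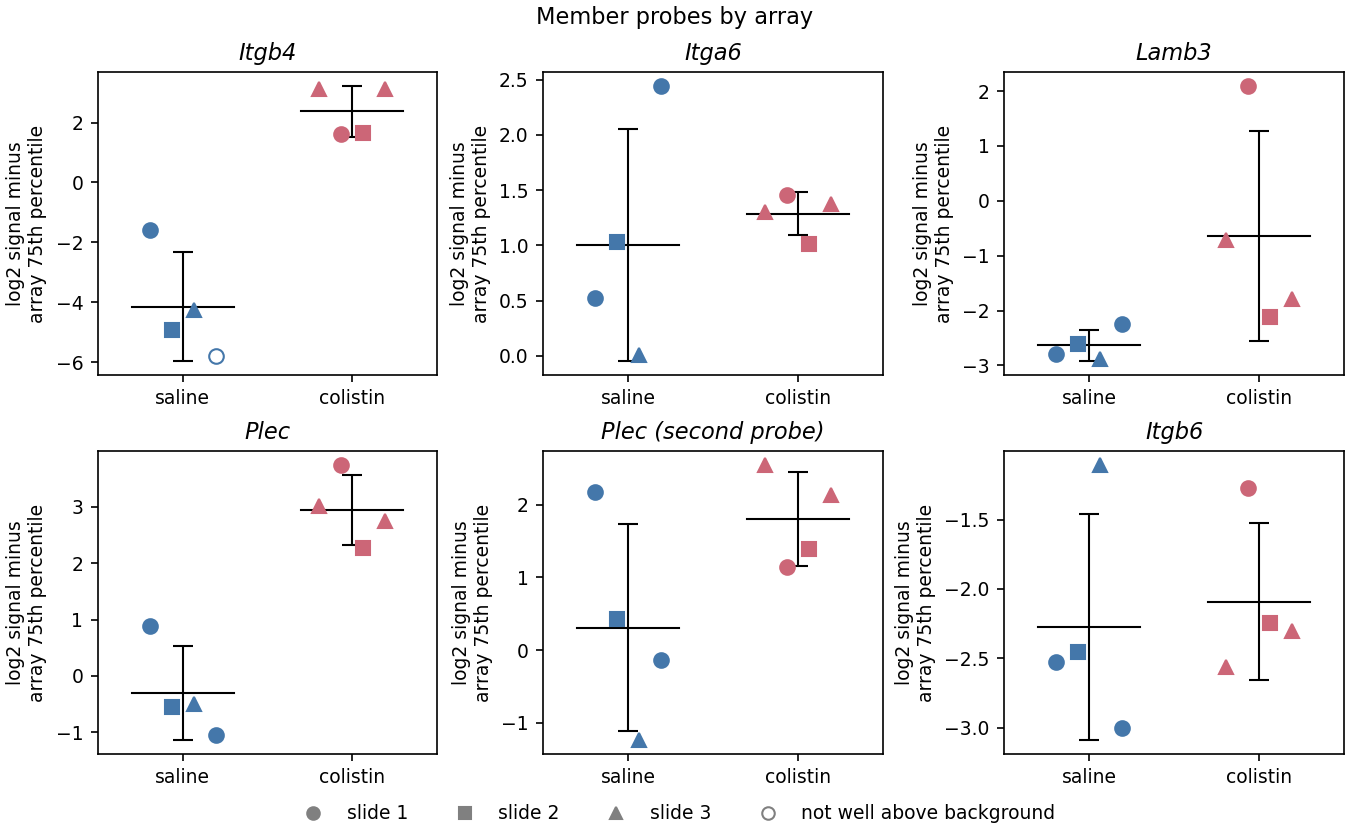
Log2 signal relative to the 75th percentile of the array (vertical axis) for the 6 member probes, by group (horizontal axis). Each point is 1 array, its shape gives the slide, an open point is not well above background, and lines and bars are the mean and SD of 4 arrays. Itgb4, the first Plec probe and Lamb3 separate the groups, and the second Plec probe does not. The Lamb3 colistin values run from -2.12 to 2.09, just above a highest saline value of -2.24.

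Lamb3 encodes the beta 3 chain, which is found in laminin-332. Saline arrays 1 to 4 measured -2.80, -2.60, -2.89 and -2.24, and colistin arrays 1 to 4 measured -0.72, 2.09, -2.12 and -1.80. The saline values were close together (SD 0.29) and the colistin values were spread (SD 1.92), with array 2 far above the others and array 3 only just above the highest saline array. The groups did not overlap. The difference was 2.00 ± 0.87 (n = 4 per group), and it was 1.09 without colistin array 2. Within slides 1, 2 and 3 it was 4.62, 0.48 and 1.63, of which the first rests on that array. In intensity units colistin array 2 measured 1310, against 62.0 to 186 on the other colistin arrays and 22.4 to 33.0 on saline arrays. With normexp the difference was 1.08.

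Itgb6 encodes the beta 6 subunit, an epithelial integrin that activates latent TGF-beta and is known to be induced in injured epithelium. It was spotted 10 times on each array, and the SD between these copies, which share RNA, labelling and hybridisation, was 0.035 to 0.16 on the log2 scale. The SD was 0.81 between saline arrays and 0.57 between colistin arrays. The array values were -2.53, -2.45, -1.11 and -3.00 after saline and -2.56, -1.27, -2.24 and -2.30 after colistin. Saline array 3 and colistin array 2 were the highest of their groups, and the groups overlapped. The difference was 0.18 ± 0.49 (n = 4 per group, 95% interval -0.95 to 1.31). Within slides it went from 1.50 (slide 1) through 0.21 (slide 2) to -1.32 (slide 3).

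All 5 measured genes had a positive difference (4 of 5 with normexp, where Itgb6 turned to -0.18), with a median of 2.00, while the median over all genes tested was -0.14 and 45.1% of all genes were positive. In limma's fit over all genes with Benjamini-Hochberg adjustment and a threshold of 0.05, 2 of the 5 were called, Itgb4 and Plec, both higher after colistin. Over all genes 2.00% were called, 1.46% as higher and 0.540% as lower. The groups did not overlap for 3 of the 5 genes (Itgb4, Plec and Lamb3), against 18.6% of all genes, or 6.89% counting only those higher after colistin. Since the list was drawn up around Itgb4, picked for its rise in this same comparison, these calls and counts are a description and no test, and nothing is read from them. Of all called genes 73.0% were higher, but 20.2% were with normexp.

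The calls of Itgb4 and Plec, as such a description, changed with the arrays and the model. With slide as a block 0 of the 5 were called, when 0.322% of all genes were, although the differences were nearly the same (6.41 for Itgb4 and 3.39 for Plec). Without colistin array 4 neither was called (differences 6.27 and 3.32). Plec also lost its call without saline array 2 or 3, without colistin array 1 or 2, and when both its probes were averaged.

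**Figure D2:**
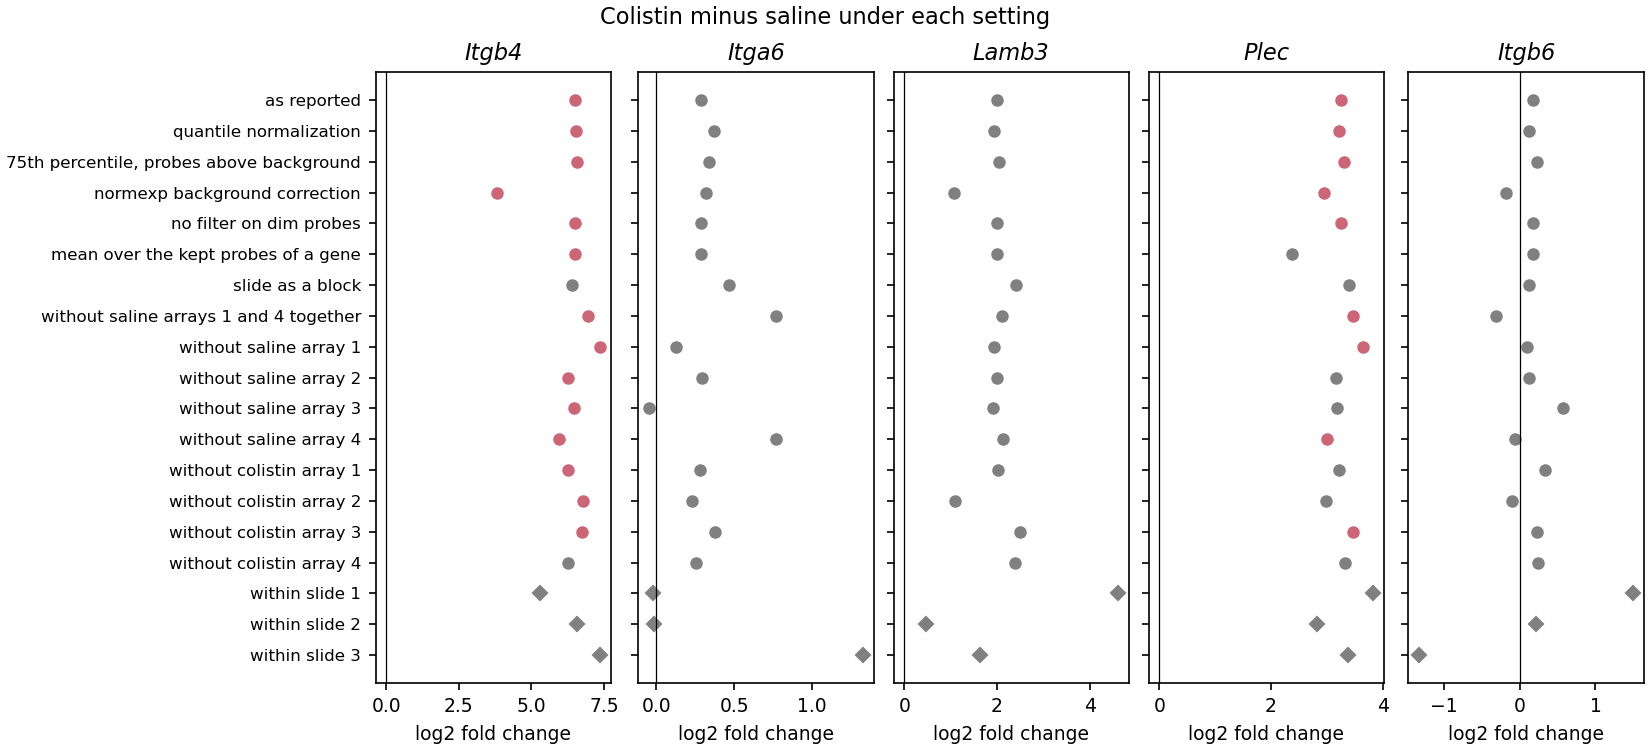
Log2 fold change, colistin minus saline (horizontal axes), of the 5 measured genes under the ways of processing or selecting arrays named in the rows. Red circles passed the threshold over all genes, grey circles did not, and diamonds are differences within 1 slide, which have no test. Itgb4 was picked for its rise in this same comparison, so the colours are a description and no test. Itgb4 lies between 3.83 and 7.37 and Plec between 2.37 and 3.83, while Itga6 and Itgb6 cross 0.

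Related genes were taken from 9 lists around the hemidesmosome, with 91 genes of which 69 were tested. Their median log2 fold change was -0.24, 28 of the 69 were positive, 1 rose and 0 fell at the threshold, and 17 (24.6%) had an unadjusted p below it, as 22.7% of all genes did. With normexp 7 of the 69 passed as higher and 11 as lower, when 27.3% of all genes passed in either direction. The riser was Plat, which encodes tissue plasminogen activator, a protease whose product plasmin cleaves laminin-332. Plat measured -1.41, 0.64, -0.35 and -0.22 after saline and 3.19, 2.71, 2.92 and 2.91 after colistin, so the groups were far apart and the colistin arrays nearly equal (SD 0.20). It rose by 3.27 ± 0.44 (n = 4 per group, adjusted p = 0.0151, limma), and lost the call without colistin array 4 (adjusted p = 0.0505) and with slide as a block (adjusted p = 0.0671).

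Among the hemidesmosome partners 0 of 6 tested genes passed in either direction. Cd151, a tetraspanin that associates with laminin-binding integrins, measured -3.94, -1.35, -2.65 and -4.99 after saline and 0.36, -0.33, -1.16 and 1.13 after colistin. Its groups did not overlap, with a difference of 3.23 ± 0.83 (n = 4 per group, adjusted p = 0.0941, limma). The signal on saline array 4 was not well above background. Without saline arrays 1 and 4 the difference fell to 2.00 (adjusted p = 0.244, limma). Cd151 passed with normexp, at a difference of 1.55 (adjusted p = 0.0333, limma). Krt5 and Krt14, the keratin pair of basal cells that hemidesmosomes anchor, gave -1.26 ± 0.35 (adjusted p = 0.109, limma) and -1.31 ± 0.45 (adjusted p = 0.159, limma). Col7a1, which encodes the anchoring fibril collagen, gave -0.94 ± 0.29 (adjusted p = 0.133, limma). With normexp these 3 passed as lower, at -0.65 for Krt5, -0.86 for Krt14 and -0.67 for Col7a1 (adjusted p = 0.0321, 0.0353 and 0.0321, limma). Over all 12411 genes tested, 684 passed as higher and 2706 as lower with normexp. Fermt1, which encodes the epithelial kindlin, gave 1.89 ± 0.77 (adjusted p = 0.199, limma), and its second probe, examined after the values were seen, gave 3.54 ± 0.48 (adjusted p = 0.0179, limma over all kept probes, of which 1.48% were called).

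Other integrin genes showed no call. All 7 alpha integrin genes tested on this list had a negative difference (median -0.92), while 45.1% of all genes had a positive one. The groups overlapped for each of the 7, and the member Itga6, outside this list, gave 0.29. The 7 signs were the same under each scaling tried, with 0 passing, or 2 with normexp. The differences ran from -1.96 for Itga8, the alpha 8 subunit of mesenchymal cells, to -0.08 for Itga1, a collagen receptor subunit. Itga8 was well above background on 3 saline and 2 colistin arrays only. Of 4 beta integrin genes 0 passed, with a median of -0.89. With normexp 1 of the 4 passed as lower, as did 2706 of the 12411 genes tested. Itgb1, the main beta partner of alpha 6 in tubules, gave 0.83 ± 0.38 (adjusted p = 0.24, limma). Its second probe gave 2.54 ± 1.13 (adjusted p = 0.208, limma over all kept probes). Itgb7, a leukocyte subunit, had the largest difference of the list, -1.31 ± 0.58 (adjusted p = 0.222, limma).

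Laminin chains other than those of laminin-332 gave 0 calls among 5 tested, and with normexp 1 higher (Lama5) and 1 lower (Lamc3). Lama5, the alpha 5 chain of tubular basement membrane, gave 1.85 ± 0.68 (adjusted p = 0.174, limma), and Lamc3, the gamma 3 chain, gave -2.10 ± 0.77 (adjusted p = 0.174, limma). The list of integrin adaptors had a median of 0.67 with 0 of 17 passing. With normexp 3 of the adaptors passed as higher and 0 as lower. Of all 12411 genes, 684 then passed as higher and 2706 as lower. The largest adaptor difference was 2.50 ± 1.13 for Vcl, which encodes vinculin (adjusted p = 0.231, limma). A second Vcl probe gave 2.49 ± 0.93 (adjusted p = 0.158, limma over all kept probes).

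Genes that signal with integrin beta 4 had a median of -0.50, with 0 of 11 passing. With normexp 1 passed as higher (Met) and 1 as lower. Of all 12411 genes, 684 then passed as higher and 2706 as lower. Met, the hepatocyte growth factor receptor, which forms complexes with beta 4, had groups that did not overlap and a difference of 2.56 ± 0.57 (n = 4 per group, adjusted p = 0.0724, limma). Its second probe, well above background on 3 of 4 saline arrays, gave 3.56 ± 0.91 (adjusted p = 0.0903, limma over all kept probes). Egfr, the epidermal growth factor receptor, gave 3.52 ± 1.13 (adjusted p = 0.143, limma), but was well above background on only 1 of 4 saline arrays. That was array 3 at -2.86, where the other saline arrays lay between -7.51 and -7.17, and the colistin arrays lay between -4.38 and -1.27. Without saline array 3 Egfr passed, at 4.63 (adjusted p = 0.0317), and with normexp its difference was 0.25 (adjusted p = 0.567).

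The list of laminin-332 proteases also holds plasminogen activators, which act on laminin-332 through plasmin. Of its 11 genes 1 rose (Plat, above, such an activator) and 0 fell, with a list median of -0.23. With normexp 1 passed as higher and 3 as lower (Tll1, Mmp7 and Mmp9, named after their values were seen). Of all 12411 genes, 684 then passed as higher and 2706 as lower. Bmp1, which processes laminin-332, gave 1.69 ± 0.73 (adjusted p = 0.219, limma). Ligands of integrin beta 6 and TGF-beta genes had a median of -1.24 with 0 of 5 passing, the largest being Ltbp1, a latent TGF-beta binding protein (-2.05 ± 1.26, adjusted p = 0.348, limma). Ltbp1 measured 2.94 on saline array 4 and -3.19 to -1.84 on the other saline arrays, and its difference was -0.66 without that array. Of 3 plakin genes besides Plec, 0 passed, and the largest difference was -0.61 ± 0.44 for Macf1, the actin and microtubule crosslinker (adjusted p = 0.426, limma).

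**Figure D3:**
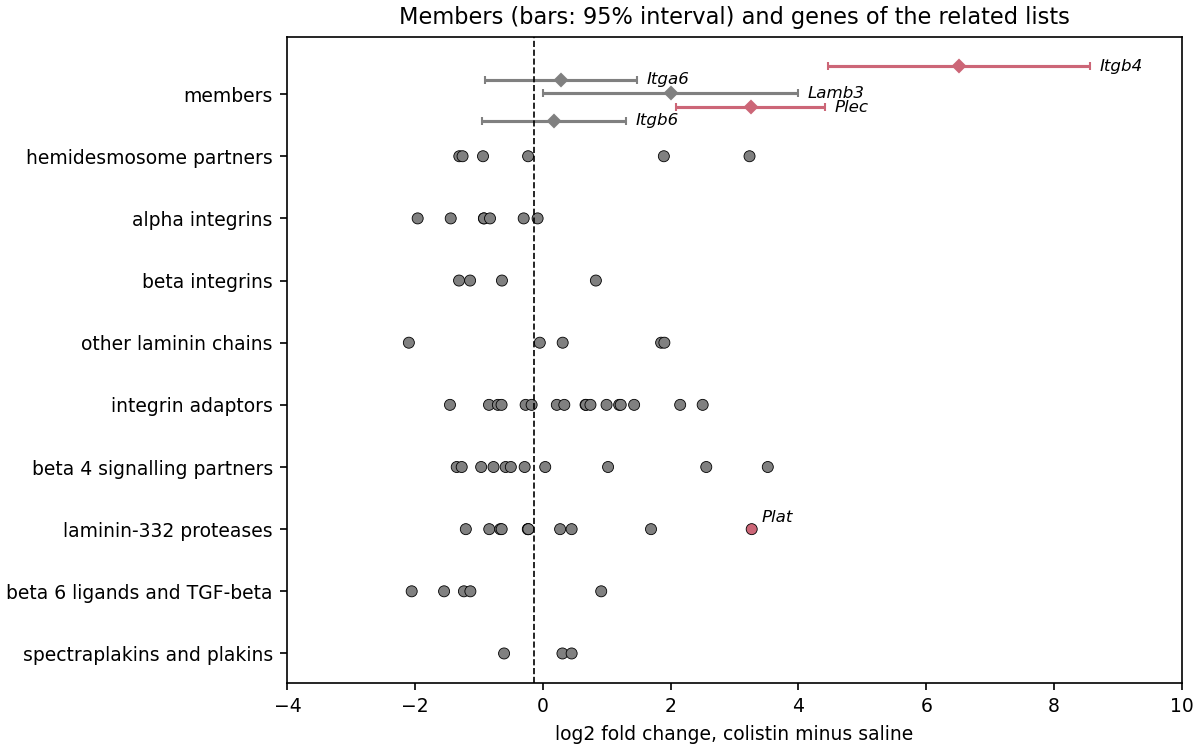
Log2 fold change, colistin minus saline (horizontal axis), of the 5 measured genes with their 95% intervals (top row) and of each tested gene on the 9 related lists (other rows, 1 point per gene). Red marks genes called over all 12411 genes, and the dashed line is the median of all genes, -0.14. The list was drawn up around Itgb4, picked for its rise in this same comparison. The intervals and colours of the 5 genes are therefore a description and no test. Plat is the only red point among the related genes.

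Markers of other epithelia that form hemidesmosomes had negative differences and did not pass. Urothelial markers had 0 of 7 tested genes passing, all 7 with a negative difference (6 of 7 with quantile normalization). Their median was -0.61, or -0.47 relative to the median of all genes. With normexp 4 of them passed as lower, as did 2706 of the 12411 genes tested. The part of the scaling in these differences was not tested. The mean level of the urothelial markers, the bright Tp63 probe included, was -1.75 to -1.07 on saline and -2.26 to -1.79 on colistin arrays. Upk2, a uroplakin gene, was well above background on 1 array of each group and was not tested. Of the squamous markers 2 were tested and 0 passed (1 lower with normexp), at -1.13 for Krt1 and -0.67 for Tp63, which is on the urothelial list too. Dsg3 was not well above background on any array and Ivl was on 1 colistin array. The mean level of the 2 tested genes was 2.15 to 2.93 after saline and 1.34 to 1.94 after colistin. It averages unlike probes, Tp63 at 8.16 after saline and 7.49 after colistin, and Krt1 at -2.97 and -4.10.

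Of the markers of other kidney compartments some fell and 0 rose, but with normexp 1 proximal tubule marker rose. Principal cells of the collecting duct had 0 of 8 genes passing (median -1.64, mean level -0.41 to 0.36 after saline and -2.64 to -0.42 after colistin). The endothelial list had 4 of 8 falling and 0 rising (median -2.86, mean level -0.31 to 0.71 against -3.12 to -1.80), and fibroblast markers had 1 of 6 falling (median -2.58, mean level 1.18 to 1.68 against -1.02 to -0.81). Podocyte markers had 1 of 6 falling (median -1.05, mean level -2.14 to -0.44 against -2.31 to -2.15), and proximal tubule markers had 2 of 9 falling (median -0.91, mean level 5.04 to 5.83 against 4.35 to 5.05). With normexp more passed as lower, as did 2706 of the 12411 genes tested. By list these were 3 of the collecting duct, 6 of the endothelial, 5 of the fibroblast, 4 of the podocyte and 4 of the proximal tubule list. The part of these shifts in the values of the members was not tested.

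The genes nearest to Itgb4 were found by the root mean square difference over the 8 arrays, each gene taken relative to its own saline mean, among 12389 candidates. They were Birc3 (1.11), an inhibitor of apoptosis induced by NF-kB, Gpr37l1 (1.13), an orphan G protein-coupled receptor, Pvr (1.20), the poliovirus receptor CD155, Stra6l (1.22) and the complement protease gene Cfi (1.25). The median over all candidates was 4.94. All 5 were well above background on 4 of 4 colistin and 0 of 4 saline arrays, so they entered the fit only through the colistin group and their saline means, from which the measure starts, are set by background. The measure takes in the size of the difference, and likeness by it says nothing of shared function or control.

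By the same measure the other members were farther from Itgb4. Plec was at 2.48, Lamb3 at 3.72, Itgb6 at 4.70 and Itga6 at 4.71, the last pair close to the median of all genes. Genes next to the called members on the chromosome, in the order of the GRCr8 gene table, gave 0 calls among 8. The tested neighbours of Itgb4 were Recql5 (0.77), Smim5 (-0.61), Galk1 (0.60) and H3f3b (1.22), and those of Plec were Scrib (2.62), Puf60 (-1.92), Grina (0.56) and Spatc1 (-0.63), with adjusted p from 0.107 to 0.486 (limma).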

How the data were processed

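RNA from 8 kidney samples was amplified to cDNA, labelled with Cy3 and read on 1-colour Agilent arrays. The deposited scanner files hold spot intensity in linear units, background-subtracted within each array. The submitters' processing notes name Agilent Feature Extraction 10.5. The deposited table of log2 values states neither scale nor centring. Its differences between arrays correlated with those of the scanner values at 0.99997 or above, each probe had a median of 0 over the arrays, and column medians were 0.0232 to 0.233 (saline) and -0.230 to -0.0327 (colistin).

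Control spots and outlying spots (257 to 461 per array) were left out, spots of a probe were averaged, log2 was taken and the array's 75th percentile subtracted. Kept probes exceeded background clearly in 3 or more arrays of either group (23718, of which 23710 had a value on every array), and were named by RefSeq accession without version through a GRCr8 table, with each gene represented by its brightest probe. Groups were compared with limma 3.58.1 in R 4.3.3, two-sided, with Benjamini-Hochberg adjustment over 12411 genes, and the script was tested on simulated data. Headers place the arrays on 3 slides, with saline 1 and 4 and colistin 2 on slide 1, saline 2 and colistin 3 on slide 2, and saline 3 and colistin 1 and 4 on slide 3. The number of arrays limits precision. Normexp used median spot signals in place of the planned mean signals, which were not used here. Members and lists were chosen with earlier results of these data known. All members, each called gene or else the largest of a related list, and the 5 genes nearest to Itgb4 were named by rule. Others named (Krt5, Krt14, Col7a1, Fermt1, Itga1, Itgb1, Lama5, Met, Bmp1 and the neighbours) were added for their role after values were seen. The values of 1 gene on a related list are not reported here.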

Additional observations from a re-analysis of the deposited data

Results flagged for a closer look

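Egfr on saline array 3 lay far from the other saline arrays, at -2.86 against -7.17 for the nearest, a gap that took 0.928 of the range of the group and exceeds Dixon's 95% critical value for 4 samples. It was 1 of 28 groups of 4 examined, over the measured members and the related genes named by rule only, where chance flags about 1 in 20.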

How the results depend on the processing

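Quantile normalization, the percentile over bright probes, no filter on dim probes and the deposited values left the count of called genes within 1.5 times of 248 and kept the same calls among the members. Normexp gave 3390 calls in all and 18 among related genes, and moved the median of all genes from -0.14 to -0.34. With slide as a block 40 genes were called, 0 members and 0 related genes. With the replicate number as a block 5 genes, 0 members and 0 related genes were called. Same-numbered arrays did not deviate together (correlations of -0.0205 to 0.0134 over genes), so this replicate block has no basis in the data. Requiring all 8 arrays well above background removed Itgb4 and left 1 member called, and averaging the probes of a gene also left 1. Without saline arrays 1 and 4 together 143 genes were called. Leaving out 1 array gave 78 to 255 calls in all (98, 106, 110 and 78 without colistin array 1, 2, 3 or 4), 0 to 2 members and 0 to 2 related genes.

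Signs of small differences turned. Itga6 gave -0.0229 and -0.0166 within slides 1 and 2, and -0.0451 to 0.766 when 1 array was left out. Itgb6 gave -0.18 with normexp (0.16 above the median of all genes), -0.0946 to 0.5683 when 1 array was left out (-0.0642 without saline array 4, -0.0946 without colistin array 2), -0.31 without saline arrays 1 and 4, and -1.32 within slide 3. The causes were not tested. Saline signals were well above background on 3 of 4 arrays for Itgb4 and on 1 of 4 for Egfr. Their differences were 6.52 and 3.52 as reported, and 3.83 and 0.25 with normexp, so their size depends on the handling of dim spots.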
